A study of Mus musculus with 14 samples.

Results

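Transcripts of 10 phosphodiesterase genes, Pde1a, Pde1b, Pde1c, Pde2a, Pde4a, Pde4b, Pde4d, Pde7b, Pde8b and Pde10a, were followed in mice given morphine or saline. The genes were taken by symbol, as enzymes that break down cAMP, several of them also cGMP or under control of calcium. All 10 were found among the 20837 gene symbols of the nucleus accumbens tables and among the 29210 genes with a read in sorted oligodendrocytes. The accumbens was profiled by Drop-seq, a droplet method that gives each cell a barcode and each captured transcript a UMI (unique molecular identifier). Each Drop-seq library was a pool of 2 male C57BL/6 mice, with 4 pools injected into the peritoneum with morphine sulfate and 4 with saline, called mock. In both groups, pools 1 and 2 came from mice of 37 to 45 days and pools 3 and 4 from mice of 78 to 82 days. Oligodendrocytes, the myelin-forming glia of the brain, were sorted after immunostaining from whole brains of male C57BL/6 mice of 70 days, and their RNA was amplified and sequenced in bulk, 3 libraries after morphine sulfate and 3 after saline. Dose and time after injection are not given in the sources used here. No source says that the sorted libraries of a group came from separate mice, so their p-values measure the spread between libraries, which may be technical.

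Phosphodiesterases end the signal of cyclic nucleotides, which adenylyl and guanylyl cyclases make in response to receptors. The Pde1 enzymes are switched on by calcium and calmodulin and cleave both cAMP and cGMP. Pde2a cleaves both and is stimulated by cGMP, the Pde4, Pde7 and Pde8 enzymes are specific for cAMP, and Pde10a cleaves both. Opioid receptors couple to inhibitory G proteins that lower cAMP. In the striatum, to which the accumbens belongs, medium spiny neurons carry D1 dopamine receptors, which raise cAMP, or D2 receptors, which lower it, and Pde10a is a classic enzyme of these neurons. In oligodendrocyte lineage cells, cAMP is known as a signal in maturation, and Pde4 enzymes are the target of the inhibitor rolipram.

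The accumbens tables gave 32537 cells with a median of 2158 UMIs per cell, and 6703923 to 24160208 UMIs per pool. Clustering without the 10 genes gave 28 clusters, of which 22 were named after their markers into 16 classes. Each class name stands for cells like those the markers mark. Unnamed clusters held 8.15% to 12.6% of the cells of morphine pools and 6.98% to 8.61% of those of mock pools. Pools shared at most 9 barcodes with each other. Reads in genes numbered 18306640 to 23456702 in the morphine libraries of sorted cells and 14989118 to 21564115 in the mock libraries. In them 12 oligodendrocyte markers summed to 63178 to 64216 CPM (reads scaled to one common total per library) after morphine and 59900 to 62952 in mock.

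Pde10a, Pde1b and Pde7b were the genes of the medium spiny neurons. Levels are CPM, UMI counts scaled to one common total for each pool and class. Pde10a averaged 1262 ± 312 CPM in the D1 class and 1468 ± 275 in the D2 class (SD, n = 8 pools), and the class next in order, mural cells, averaged 413 ± 196. The 8 pools of the D1 class did not overlap those of the mural class. The calcium-dependent Pde1b averaged 472 ± 144 CPM in D1 and 477 ± 128 in D2 neurons, and D1 was higher in 4 of 8 pools. Pde7b averaged 150 ± 42.5 CPM in D1 and 182 ± 48.7 in D2 neurons. Pde10a, Pde7b, Pde2a and Pde4b were each higher in D2 than in D1 neurons of the same pool in 8 of 8 pools, although over all pools the ranges of the classes overlapped for each. Pde1a had the opposite order in the whole classes, with D1 higher in 8 of 8 pools, at 189 ± 93.2 CPM in D1 and 107 ± 66.9 in D2 neurons. The D1 class joins a pair of clusters, and the larger one, led by Drd1 and Pdyn, with Reln, did not show most of these orders. Against D2 neurons it had 1514 ± 230 and 1468 ± 275 CPM of Pde10a, with D1 higher in 6 of 8 pools, and 182 ± 45.1 and 182 ± 48.7 of Pde7b, with D1 higher in 4. It had 244 ± 57.5 and 252 ± 56.6 CPM of Pde2a, with D1 higher in 4 of 8 pools, and 105 ± 51.6 and 107 ± 66.9 of Pde1a, with D1 higher in 3. Pde4b kept the order there, at 163 ± 15.8 CPM in the Drd1 cluster and 224 ± 27.7 in D2 neurons, with D1 higher in 0 of 8 pools. Pde1b, near equal in the whole classes, was 575 ± 154 CPM in the Drd1 cluster and 477 ± 128 in D2 neurons. The Drd1 cluster was higher in 8 of 8 pools. The smaller D1 cluster, led by Tac2, had 295 ± 71.8 CPM of Pde1b and was higher than D2 neurons in 0 of 8 pools. The ranges over pools overlapped in both comparisons of Pde1b. These levels describe clusters of the same cells and were not tested.

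**Figure D1:**
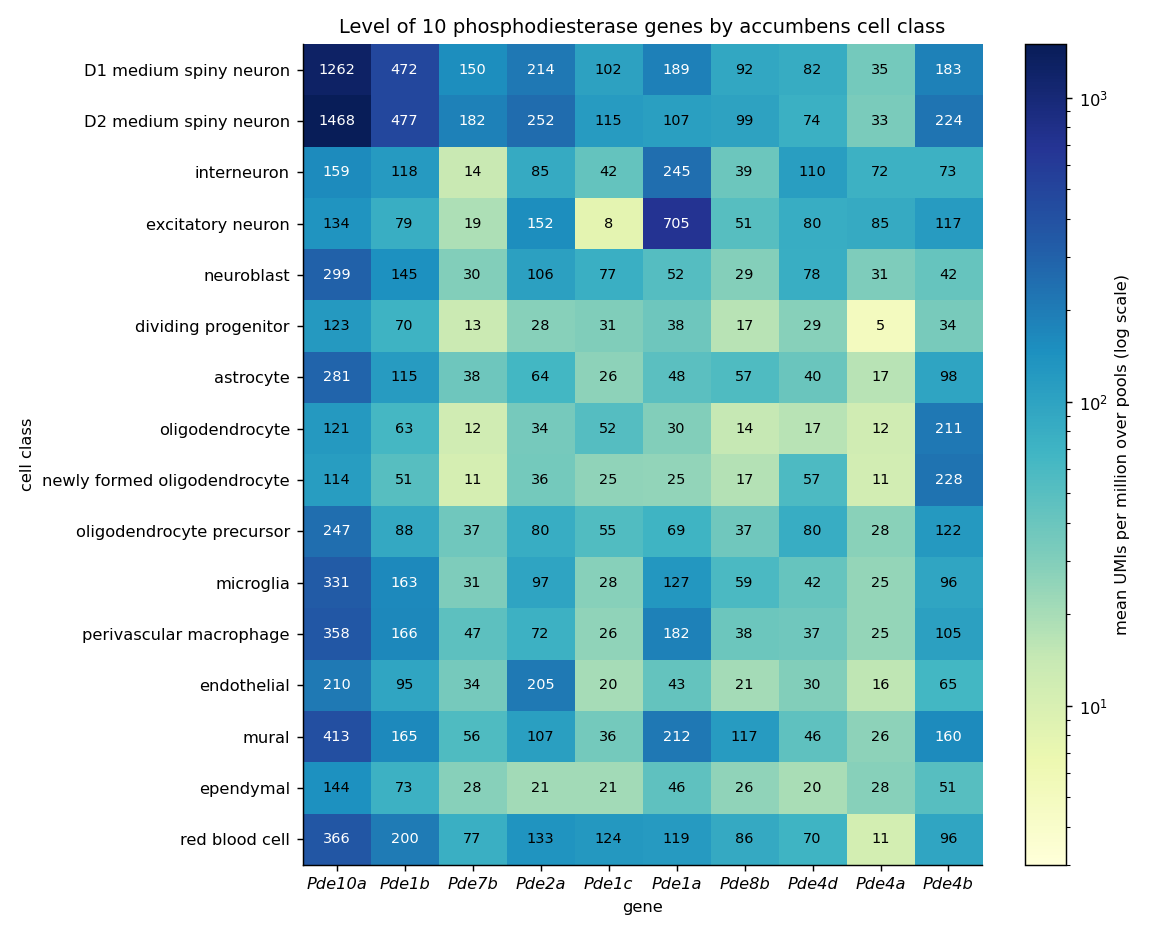
Mean level of each gene (columns) in each accumbens cell class (rows), in CPM averaged over the pools with at least 10 cells of the class, on a log colour scale. Pde10a stands at 1262 and 1468 in the D1 and D2 medium spiny neurons, Pde1a at 705 in excitatory neurons, and Pde4b at 211 in oligodendrocytes.

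RNA of spiny neuron markers was found in droplets of other cells, and it sets how low levels can be read. In oligodendrocytes the spiny neuron markers Ppp1r1b and Rgs9 stood at 8.06% and 10.2% of their spiny neuron level, as the mean over 8 pools. Pde10a and Pde7b, at 9.33% and 7.68%, and Pde1b, at 13.1%, were near that background in oligodendrocytes, and their levels there are not read as expression. Pde4b in oligodendrocytes stood at 107% of its spiny neuron level, and in newly formed oligodendrocytes at 117%. Pde1c stood at 52.7% in oligodendrocytes. In endothelial cells, where these markers stood at 14.0% and 19.2%, Pde2a reached 92.0% of its spiny neuron level. In mural cells, the contractile cells of vessel walls, the same markers stood at 27.8% and 26.1%, while Pde8b reached 127%. Pde1a averaged 193% there, but 1 pool stood at 679%, and without it the mean was 124%. That was morphine pool 3, where D1 neurons had 46.8 CPM of Pde1a, beside a mean of 189 over the 8 pools. The high percent there thus goes with a low spiny neuron level, and mural cells had less Pde1a there than in mock pool 3.

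The makeup of the UMIs of the 10 genes, released RNA included, therefore differed by class. Each captured transcript gives 1 UMI at its end in Drop-seq, so UMIs were not divided by gene length. Pde10a took 44.9% ± 7.22 of the UMIs of the 10 genes in D1 and 48.2% ± 5.59 in D2 neurons (SD, n = 8 pools). Pde1a took 48.7% ± 9.88 in excitatory neurons and 25.6% ± 4.51 in interneurons. Pde2a took 29.8% ± 9.91 in endothelial cells. Pde4b took 37.7% ± 10.7 in oligodendrocytes and 41.0% ± 12.7 in newly formed oligodendrocytes, ahead of Pde10a in both classes. In oligodendrocytes the total also counts UMIs of Pde10a, Pde1b and Pde7b, which lay near the background of released RNA. The share of Pde4b there is thus lower than it would be without them. The place of Pde10a behind it is not read as expression. Shares were not corrected for released RNA in any class.

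Pde1a, a calcium-dependent enzyme, differed widely among the neurons. Excitatory neurons averaged 705 ± 228 CPM (SD, n = 8 pools), and their lowest pool, at 480 CPM, stood above the highest of the interneuron class, at 312. Within the interneurons, a cluster led by Npy, Sst and Nos1 averaged 726 ± 120 CPM of Pde1a in the 7 pools with at least 10 of its cells. In the same pools a cluster led by Pthlh, Cox6a2 and Kit averaged 34.6 ± 17.5, and one led by Vip, Pnoc and Resp18 averaged 208 ± 31.5. The Vip cluster was the largest of the 3, with 1785 cells before doublets were removed. Its leading genes also held Slc17a6, which is on the list of excitatory neuron markers. The pools of the Sst cluster, 604 to 900.2 CPM, overlapped with neither of the others. Pde4b separated the same 3 clusters in the same order, at 114 ± 11.2, 74.0 ± 13.8 and 23.0 ± 8.54 CPM for the Sst, Vip and Pthlh clusters. Pde4a, a cAMP-specific enzyme, ran otherwise: it averaged 122 ± 32.6 CPM in the Pthlh cluster and 67.7 ± 19.4 in the Vip cluster over 8 pools, and was higher in the Pthlh cluster in 7 of them.

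The D1 neurons also fell into a pair of clusters that differed in these genes. The smaller cluster, led by Tac2, Lypd1 and Foxp2, averaged 331 ± 79.8 CPM of Pde1a, and the Drd1 cluster averaged 105 ± 51.6 (SD, n = 8 pools). The first was higher in 8 of 8 pools. Pde4b was also higher in the Tac2 cluster in 8 of 8 pools, at 232 ± 43.1 against 163 ± 15.8 CPM. Pde10a, Pde1b, Pde2a and Pde7b were lower in the Tac2 cluster in 8 of 8 pools, with Pde10a at 836 ± 235 against 1514 ± 230 CPM and Pde1b at 295 ± 71.8 against 575 ± 154.

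High levels of Pde1a and of Pde8b, a cAMP-specific enzyme, were found in an unnamed cluster led by Pkib, Prok2 and Rreb1. Pde1a averaged 1261 ± 356 CPM there and Pde8b 342 ± 142, in the 5 pools with at least 10 of its cells. In the same pools the Drd1 cluster averaged 130 ± 46.6 for Pde1a and 96.1 ± 17.5 for Pde8b. Pde10a, at 211 ± 102 CPM, and Pde7b, at 36.3 ± 12.9, were low in the unnamed cluster, against 1569 ± 240 and 205 ± 41.95 in the Drd1 cluster. Of its 391 cells in these pools, 238 came from morphine pool 2, and Pde1a stood at 1233 and 1809 in morphine pools 2 and 4, against 992, 1360 and 909 CPM in mock pools 2 to 4. Its markers met no rule for a class name.

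**Figure D2:**
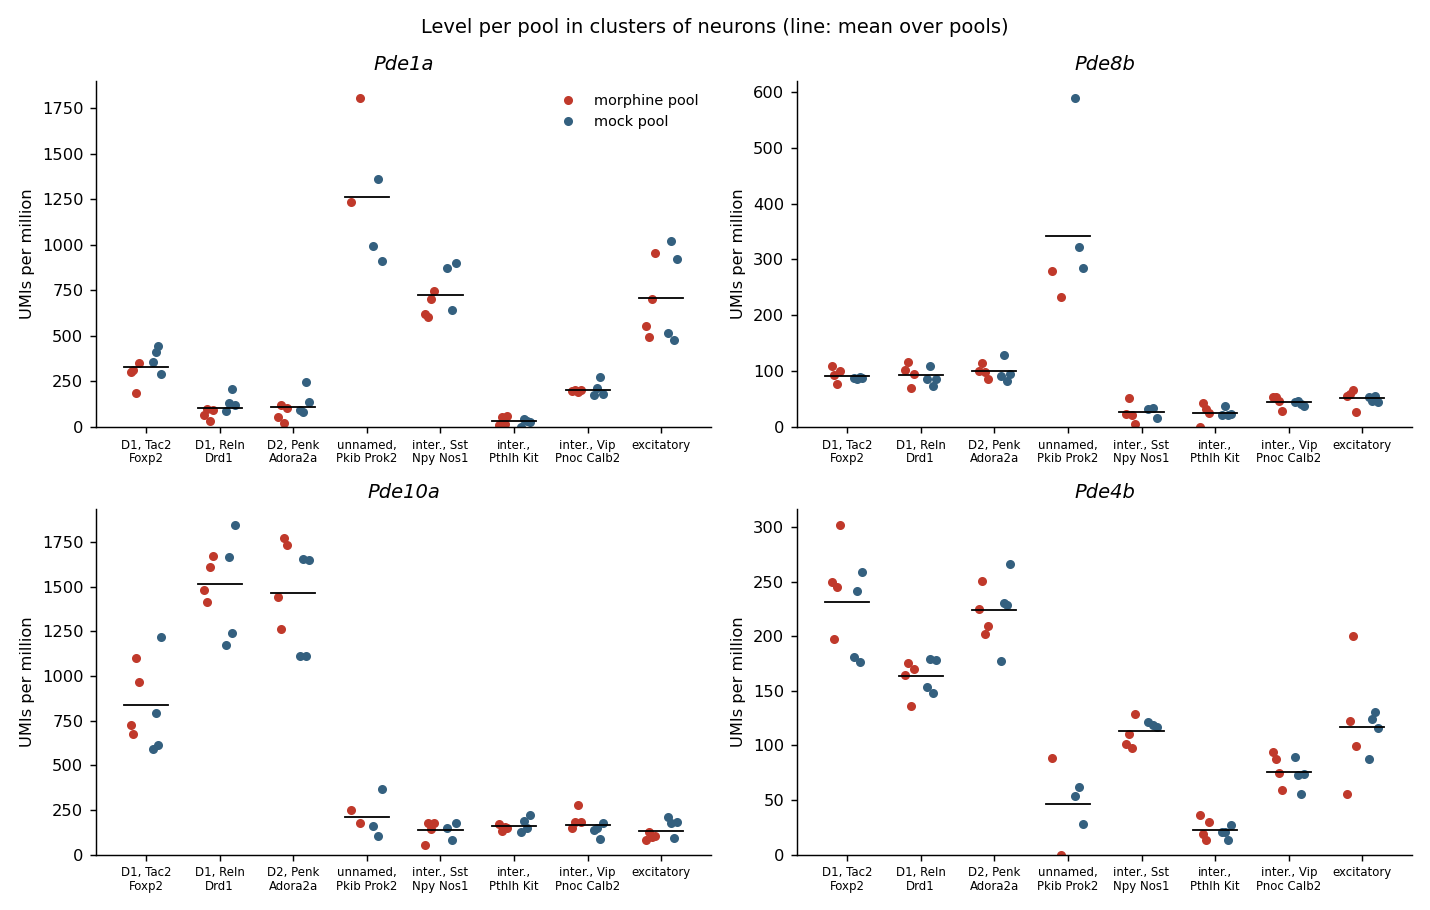
Level of Pde1a, Pde8b, Pde10a and Pde4b in clusters of neurons, in CPM, with 1 point per pool, morphine pools (red) left of mock pools (blue), and a line at the mean over pools. Pde1a averages 1261 in the Pkib cluster and 726 in the Sst cluster but 30.3 in the Pthlh cluster, while Pde10a is highest in the D1 cluster with Reln and in the D2 cluster.

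Among the Pde4 genes, Pde4b averaged 211 ± 60.5 CPM in oligodendrocytes, 228 ± 54.1 in newly formed oligodendrocytes and 122 ± 28.4 in their precursors (SD, n = 8 pools). With classes taken from marker scores per cell, the newly formed oligodendrocytes averaged 144 CPM, and D2 neurons were then the highest class for Pde4b. Pde4d averaged 16.8 ± 5.68, 57.4 ± 29.5 and 79.9 ± 19.4 CPM in the same order of classes, and in mature oligodendrocytes it had the lowest mean of all 16 classes. Pde4a averaged 84.5 ± 50.2 CPM in excitatory neurons, 72.5 ± 14.5 in interneurons and 35.1 ± 5.34 in D1 neurons, and the interneuron pools did not overlap those of the D1 class. Within the oligodendrocytes Pde4b averaged 151 ± 60.2 CPM in a cluster led by Klk6 and Anln and 226 ± 63.3 in one led by Ptgds and Il33, and it was lower in the Klk6 cluster in 8 of 8 pools. In oligodendrocytes Pde4a rested on 44 UMIs over the 4 morphine pools and 52 over the 4 mock pools.

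The genes closest to each of the 10 across the 16 classes were found by Pearson correlation of mean log2 level among 14144 genes, as a description over classes that share pools and released RNA. Among the genes closest to Pde10a were Rgs9 (r = 0.98), a regulator of G protein signalling in the striatum, and Rasd2. Pde1b was closest to the kinase anchor Akap5 (r = 0.98), Tmem158 and Rasd2, and Pde7b to Lpl (r = 0.96), Ppp1r1b and Adamts3. Pde2a was closest to the kinase Plk2 (r = 0.95), to Rapgef2 and Plcb1. Among the genes closest to Pde1a were Slc6a17 and the calcium-stimulated cyclase Adcy1 (r = 0.94 for both). Pde4a was closest to Chd5 (r = 0.97), Synj1 and Ryr2, Pde4d to Atcay (r = 0.94), Bmerb1 and Reep1, and Pde8b to Speg (r = 0.94), Rhobtb2 and Actr3b. The likeness was lower for Pde4b, closest to Mbnl2 (r = 0.88), Ypel2 and Dnajb12, and for Pde1c, closest to Gpsm1 (r = 0.84), Ric8b and Dlx6.

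In sorted oligodendrocytes, morphine was set against mock to ask which phosphodiesterase transcripts changed. Pde4a and Pde4b fell, and the other 8 genes did not pass the test. In such bulk samples, fewer cells of a type and less RNA per cell cannot be told apart. Pde4a had 12.1, 15.2 and 14.8 CPM in the morphine libraries, against 27.2, 26.9 and 32.4 in the mock libraries. Every morphine library was thus below every mock library, and the log2 fold change was -1.01 ± 0.10 (SE), with an adjusted p of 1.39e-07 in edgeR's quasi-likelihood test. Pde4b had 254, 247 and 240.1 CPM in the morphine libraries, against 398, 418 and 383 in the mock libraries. These groups did not overlap either, and the log2 fold change was -0.67 ± 0.06 with an adjusted p of 1.3e-08. Of the 15741 genes tested, 14.7% were called at an adjusted p under 0.05, 6.66% as lower and 8.09% as higher after morphine; 2 of the 10 phosphodiesterase genes were called, both lower. The authors' deposited table lists log2 fold changes of -0.95 for Pde4a and -0.63 for Pde4b, with adjusted p-values of 1.79e-12 and 1.11e-21.

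**Figure D3:**
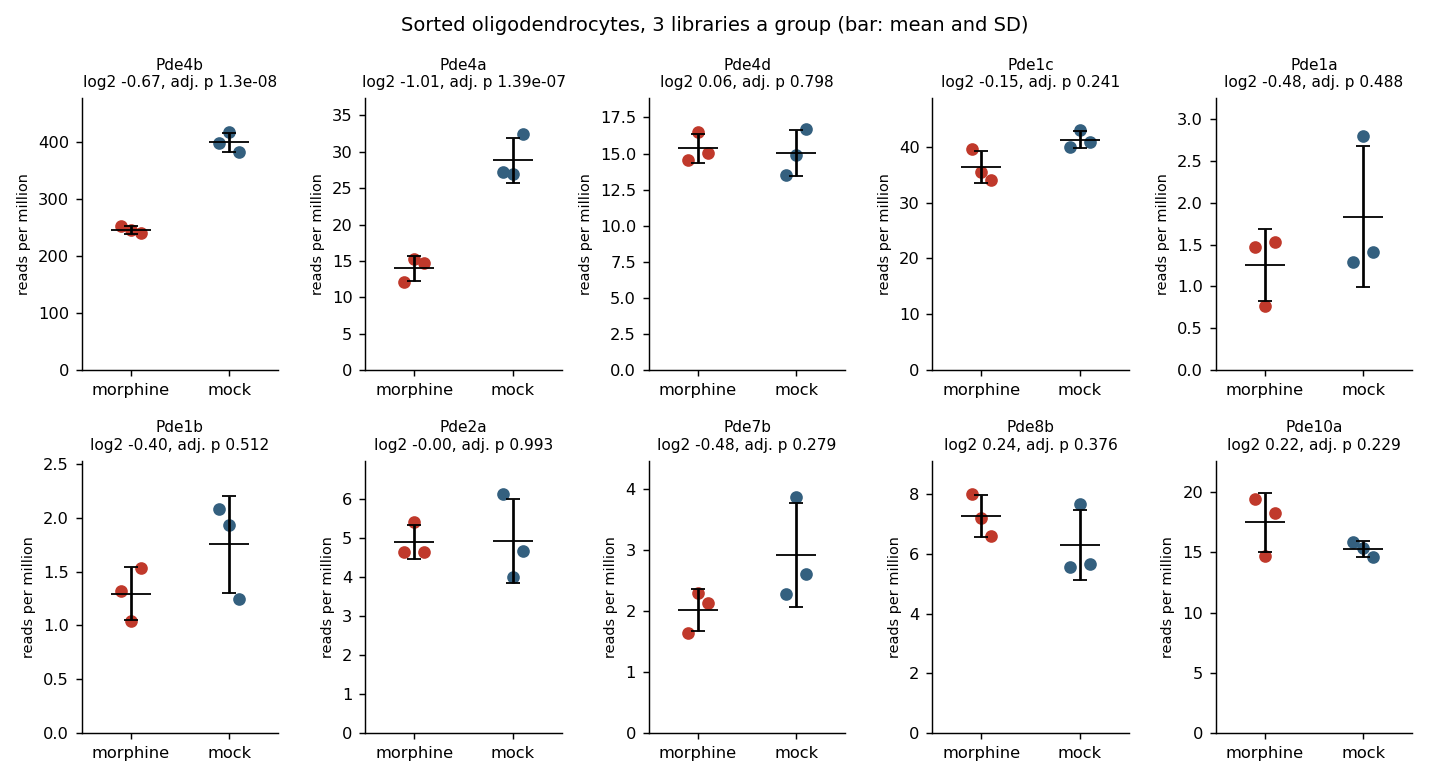
CPM of each gene in the sorted oligodendrocyte libraries, with the 3 morphine libraries left of the 3 mock libraries, and the mean and SD as bars. Each panel title gives the log2 fold change, morphine over mock, and the adjusted p. Pde4b and Pde4a are lower in every morphine library than in every mock library.

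Pde4a lies on chromosome 9 (21165714 to 21213248, + strand) and Pde4b on chromosome 4 (102087543 to 102607259, + strand) of build GRCm38 in GENCODE. Both genes have several promoters in RefSeq on build GRCm38.p6, 4 for Pde4b and 3 for Pde4a, and which of them these cells used was not analysed here. The starts shown were picked, after Pde4a and Pde4b were seen to fall, because they hold the core of a cAMP response element. The core is in 2 of the 7 windows of this pair of genes and in 5 of the 31 windows of the 10 genes (16.1%), the others being in Pde1a, Pde2a and Pde8b, which did not pass the test. Each stretch runs from 250 bases before to 50 after the transcript start, on the + strand of chr9:21183851-21184150 for Pde4a start 2 and of chr4:102421305-102421604 for Pde4b start 1. Capitals mark that core, TGACG, and the GC box GGGCGG, each searched on both strands.
Pde4a start 2: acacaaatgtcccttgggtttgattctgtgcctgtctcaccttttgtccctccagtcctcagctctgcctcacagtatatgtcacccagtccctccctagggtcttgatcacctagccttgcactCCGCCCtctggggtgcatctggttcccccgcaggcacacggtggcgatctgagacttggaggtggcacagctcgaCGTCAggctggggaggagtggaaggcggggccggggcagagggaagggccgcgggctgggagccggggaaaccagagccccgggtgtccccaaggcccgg
Pde4b start 1: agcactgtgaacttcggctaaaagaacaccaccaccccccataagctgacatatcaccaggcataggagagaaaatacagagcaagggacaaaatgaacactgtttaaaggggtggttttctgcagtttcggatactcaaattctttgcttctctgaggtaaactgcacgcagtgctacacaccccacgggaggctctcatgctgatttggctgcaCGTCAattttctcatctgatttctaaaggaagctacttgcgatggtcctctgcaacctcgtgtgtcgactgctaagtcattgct
The core begins at -50 of the Pde4a start and at -34 of the Pde4b start. The core is present in 20.8% of the 32851 RefSeq mouse promoters of the same length, and the GC box in 35.7%. The full element TGACGTCA, which holds the core on both strands and also counts there, is in 1.79% of promoters, and the glucocorticoid response element (AGAACA, 3 bases of any kind, TGTTCT) in 0.009%. Neither string was found in the 31 windows of the 10 genes.

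The other 8 genes did not pass the test in sorted oligodendrocytes. Pde10a had a log2 fold change of 0.22 ± 0.11 (SE, adjusted p = 0.229), Pde1c of -0.15 ± 0.08 (0.241), Pde7b of -0.48 ± 0.26 (0.279) and Pde8b of 0.24 ± 0.16 (0.376), in edgeR's quasi-likelihood test. Pde1a, Pde1b, Pde2a and Pde4d had adjusted p-values of 0.488 to 0.993. Pde1c had 39.6, 35.5 and 34.0 CPM in the morphine libraries, against 40.0, 43.0 and 40.8 in the mock libraries. Its groups did not overlap although the test was not passed, and morphine lay below mock without overlap in 3 of the 10 genes, Pde1c, Pde4a and Pde4b, and in 16.0% of all genes tested. Pde1a, Pde1b and Pde7b rested on 14 to 58 reads per library. Pde4d, the third Pde4 gene, had 14.5, 16.5 and 15.01 CPM in the morphine libraries, against 13.5, 14.9 and 16.7 in the mock libraries. Its log2 fold change was 0.06 ± 0.10. The median log2 fold change of the 10 genes was -0.28, beside -0.02 over all genes tested.

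Per kilobase of exon, Pde4b was the leading gene of the 10 in sorted oligodendrocytes. It averaged 23.4 ± 0.65 RPKM (CPM per kilobase of exon) after morphine and 37.9 ± 1.63 in mock (SD, n = 3 each). Pde4a averaged 1.83 ± 0.22 after morphine and 3.77 ± 0.40 in mock, where it was second of the 10. After morphine it lay within its SD of Pde1c, which was above it in library 1, at 1.98 against 1.58 RPKM. The other 8 genes lay between 0.16 for Pde7b and 1.81 for Pde1c after morphine, and between 0.23 for Pde7b and 2.06 for Pde1c in mock. As a share of the 10 genes on this scale, Pde4b took 72.3% ± 0.42 after morphine and 77.5% ± 0.88 in mock.

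Markers of all cell types were read in the same sorted libraries. The 7 excitatory neuron markers summed to 8.58 to 8.74 CPM after morphine and 10.2 to 14.6 in mock, and 0 of 7 were called. The 13 interneuron markers summed to 36.2 to 40.2 after morphine and 33.1 to 37.9 in mock, with 1 of 5 tested called, higher. The 10 endothelial markers summed to 292 to 354 after morphine and 261 to 289 in mock, with 4 called lower and 1 higher. Of the 10 microglia markers, which summed to 58.1 to 58.4 after morphine and 58.6 to 69.7 in mock, 2 were called lower. The 8 neuroblast markers summed to 115 to 135 after morphine and 38.0 to 52.8 in mock. Of the 6 tested, 1 was called, Tubb3, which rose by 1.75 on the log2 scale, while the median of the 6 was -0.13. The 6 markers shared by medium spiny neurons summed to 77.3 to 84.6 after morphine and 85.9 to 97.6 in mock, with 1 called, lower. The 9 markers of newly formed oligodendrocytes that were found summed to 507 to 529 after morphine and 526 to 610 in mock. This class had the highest mean of Pde4b under the main setting, and D2 neurons had it with classes from marker scores. Of its markers 3 were called lower and 1 higher. The log2 fold changes of these were -1.29 for Mpzl1, -0.50 for Tcf7l2, -0.19 for Bcas1 and 0.97 for Fyn. Of the 12 markers of mature oligodendrocytes, 3 were called lower and 2 higher. The 10 astrocyte markers summed to 612 to 666 after morphine and 598 to 716 in mock, with 3 called higher and 2 lower. The 6 markers of D2 neurons summed to 26.7 to 28.5 after morphine and 24.5 to 27.0 in mock, with 1 called, Penk, which fell by 1.95 on the log2 scale. Of the 6 tested markers of oligodendrocyte precursors 1 was called, higher. The markers of D1 neurons, dividing progenitors, perivascular macrophages, mural cells, ependymal cells and red blood cells had 0 called. No listed marker in the table was at 0 in all 6 libraries. The part of these cells in the fall of Pde4a and Pde4b was not tested.

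The rest of the pathway was read from 5 lists in the sorted cells, where 8.09% of all genes tested were called higher and 6.66% lower. Of 12 other phosphodiesterases tested, 1 fell, the cAMP-specific Pde7a, with a log2 fold change of -0.45 ± 0.11 (adjusted p = 0.0065 in edgeR). Of 16 genes of cAMP synthesis, 3 rose, the G protein subunit Gnao1 (0.42) and the cyclases Adcy5 (0.41) and Adcy9 (0.36), and 1 fell, the inhibitory subunit Gnai1 (-0.28). Of 24 cAMP effectors tested, 4 rose and 2 fell. The rise of the regulatory subunit of protein kinase A Prkar1b (1.91 ± 0.27) and of the kinase inhibitor Pkig (0.94 ± 0.10), with the anchor Akap9 (0.29), stood beside a fall of the catalytic subunit Prkacb (-0.36) and of the transcription factor Creb1 (-0.21). Of 9 genes of cGMP signalling, 0 rose and 1 fell, the receptor cyclase Npr1 (-0.54), and of 13 calmodulin genes and their other enzymes 0 were called. The medians of the 5 lists were -0.05, -0.02, -0.08, -0.02 and -0.08 in this order, beside -0.02 over all genes tested. The glucocorticoid-responsive genes Sgk1 and Fkbp5 rose by 3.98 and 3.48 on the log2 scale in the same libraries.

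In the accumbens the same question was asked per class, with the pool as the replicate. None of the 99 pairs of class and gene that could be tested passed the test over 15 classes; 2 had an unadjusted p under 0.05, and DESeq2 called 0. Over all genes, 0.00742% of the pairs of class and gene were called, and 2.58% had an unadjusted p under 0.05. The class with called genes was the oligodendrocytes, with 7 genes or 0.0825% of those tested, none a phosphodiesterase. In all cells together, 0% of 15022 genes were called by edgeR, 249 had an unadjusted p under 0.05 and 4 were called by DESeq2, and the 10 genes had log2 fold changes from -0.22 for Pde1a to 0.16 for Pde10a.

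Pde4b in accumbens oligodendrocytes had 151, 178, 169 and 189 CPM in morphine pools 1 to 4, against 178, 259, 333 and 233 in mock pools 1 to 4. The morphine pools lay at the low end and overlapped with mock pool 1. The log2 fold change was -0.49 ± 0.19 (SE), with a p of 0.0202 and an adjusted p of 0.772 in edgeR's quasi-likelihood test, so it did not pass. Without mock pool 3, the highest, it was -0.28 with an adjusted p of 1.00. Pools of like number were of like age, and with that number as a block the adjusted p was 0.071, which did not pass either. Pde4a in the same cells averaged 9.66 ± 3.99 CPM in morphine pools and 13.8 ± 1.09 in mock pools (SD, n = 4 each), with a log2 fold change of -0.34 ± 0.34. Both genes were thus lower on average after morphine, as in the sorted cells, without passing the test. Pde7b and Pde2a in oligodendrocytes had log2 fold changes of -0.75 ± 0.39 and -0.61 ± 0.31, at levels near the background of released RNA. Over the 10 genes the median was -0.18, beside -0.01 over all genes tested in that class. Red blood cell markers, 5 genes, summed to 176 to 1019 CPM in the oligodendrocytes of morphine pools and 746 to 3991 in those of mock pools, and their part in these values was not tested.

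**Figure D4:**
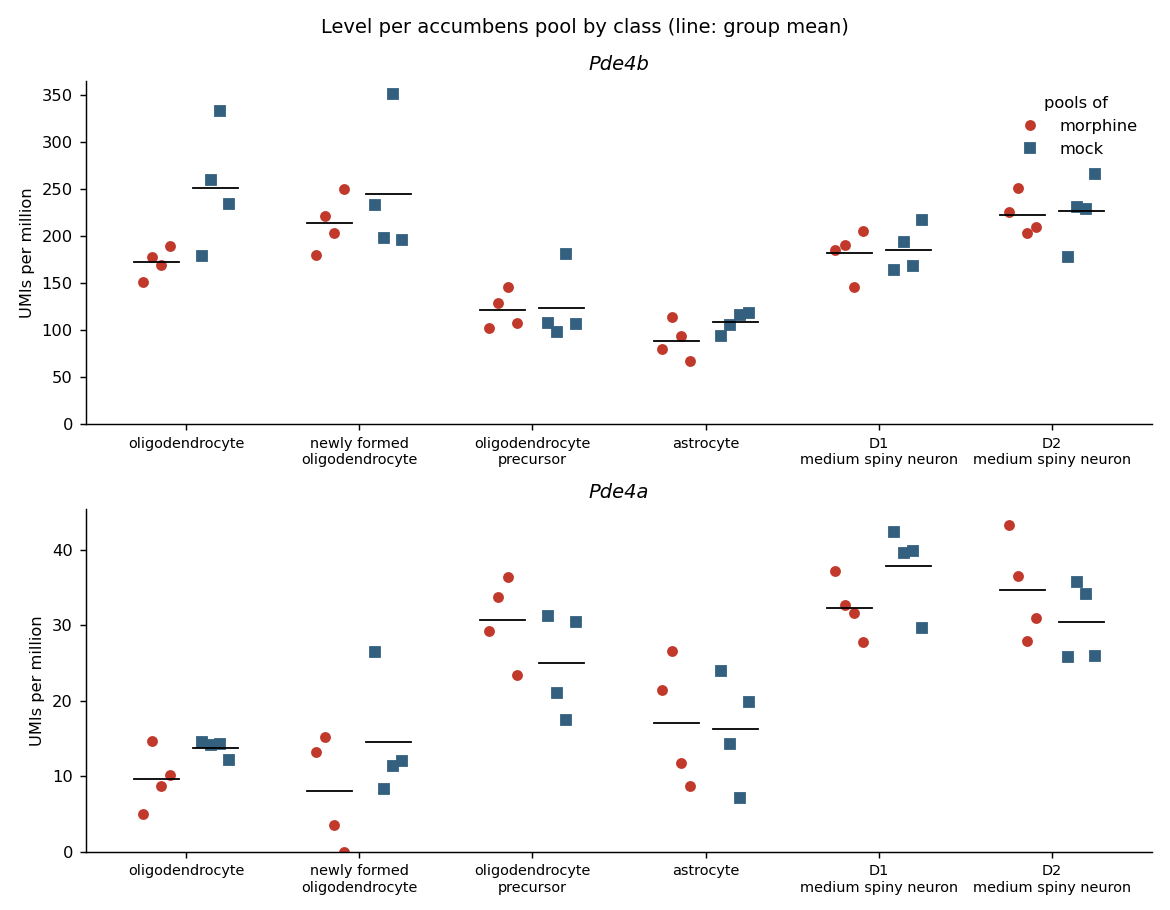
Level of Pde4b (top) and Pde4a (bottom) per pool in 6 classes, in CPM, with morphine pools (red circles) left of mock pools (blue squares) and a line at each group mean. In oligodendrocytes the morphine pools of Pde4b sit between 151 and 189 and the mock pools between 178 and 333.

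In the medium spiny neurons Pde10a was the most abundant of the 10 genes and did not pass the test. It had 1309, 930.3, 1570.1 and 1486 CPM in D1 neurons of morphine pools 1 to 4, against 959.6, 1478, 811 and 1549 in mock pools 1 to 4. The highest and the lowest pool, morphine pool 3 and mock pool 3, stood among overlapping groups. In these pools the Tac2 cluster, low in Pde10a, made up 11.1% and 70.8% of the D1 neurons, and within the Drd1 cluster Pde10a stood at 1611 and 1242 CPM. The log2 fold change was 0.22 ± 0.24 in D1 and 0.24 ± 0.18 in D2 neurons (SE). Pde4b had 0.04 ± 0.15 in both classes. Pde4d had 0.26 ± 0.19 in D1 and 0.17 ± 0.20 in D2 neurons. The adjusted p was 1.00 for all 10 genes in both classes in edgeR's quasi-likelihood test. The medians of the 10 genes were 0.04 in D1 and 0.03 in D2 neurons, beside 0.00 over all genes in both.

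**Figure D5:**
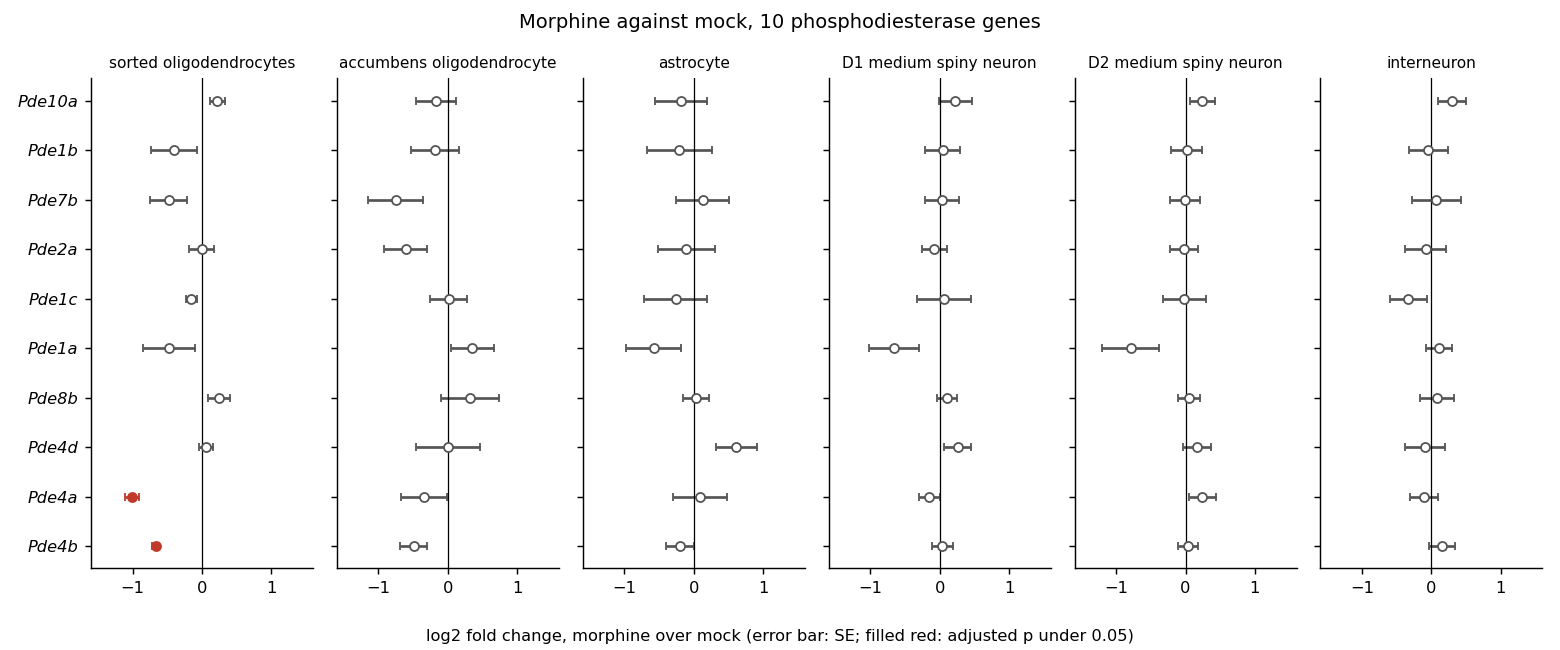
Log2 fold change, morphine over mock, of the 10 genes (rows) in the sorted oligodendrocytes and in 5 accumbens classes (panels), with the SE as bar; filled red points have an adjusted p under 0.05. Pde4a and Pde4b in the sorted cells, at -1.01 and -0.67, are the filled points.

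Pde1a varied widely between pools of spiny neurons. D1 neurons had 119, 239.6, 46.8 and 159 CPM in morphine pools 1 to 4, against 187, 192, 368 and 200.1 in mock pools 1 to 4. D2 neurons had 51.9, 120.2, 19.7 and 104 in the morphine pools, against 95.1, 81.9, 245 and 135 in the mock pools. Morphine pool 3 was lowest and mock pool 3 highest in both classes, and the groups overlapped. The log2 fold change was -0.66 ± 0.36 in D1 and -0.79 ± 0.41 in D2 neurons, with unadjusted p-values of 0.094 and 0.073. Of the D1 neurons, the Tac2 cluster, which is high in Pde1a, made up 11.1% in morphine pool 3 and 70.8% in mock pool 3. Within the Drd1 cluster alone, Pde1a still stood at 34.9 CPM in morphine pool 3 and 208 in mock pool 3. In mural cells of the same pools Pde1a had 242 and 257 CPM.

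Whether oligodendrocytes differed from another class in their response was tested by a term for class and treatment with the pool as a block. None of the 10 genes passed, beside 0.0547% of all genes against D1 neurons and 0.00983% against astrocytes. Pde4b had a difference of log2 fold changes of -0.45 ± 0.21 against D1 neurons (SE, unadjusted p of 0.049, adjusted p = 1.00) and -0.22 ± 0.20 against astrocytes. Pde1a had 0.97 ± 0.31 against D1 neurons (unadjusted p of 0.0057, adjusted p = 0.889) and 0.85 ± 0.31 against astrocytes (unadjusted p of 0.0115, adjusted p = 1.00). In the unadjusted test alone, 2 of the 10 genes were under 0.05 against each class, beside 3.36% of all genes against D1 neurons and 3.94% against astrocytes. Against D1 neurons these were Pde4b and Pde1a, and against astrocytes Pde1a and Pde7b. Pde7b lay near the background in oligodendrocytes, at 7.68% of its spiny neuron level. The Tac2 cluster, high in Pde1a, made up 11.1% to 70.8% of the D1 neurons of a pool, and its part in these values was not tested.

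In all accumbens cells together, 2 of the 10 genes, Pde2a and Pde1b, had an unadjusted p under 0.05 for age in edgeR, and 0 for morphine. Over all genes tested these shares were 10.7% for age and 1.66% for morphine. Levels in all cells together sum over all classes, so the makeup of the cells and the level per cell cannot be told apart. Excitatory neurons, as an example, numbered 10 to 581 cells in the older pools and 22 to 177 in the younger pools. Pde2a had 153 and 106 CPM in the older morphine pools and 126 and 131 in the older mock pools, against 176 and 146 in the younger morphine pools and 193 and 190.0 in the younger mock pools. Its log2 fold change, older over younger, was -0.40 ± 0.14 (SE, unadjusted p of 0.0196, adjusted p = 0.456), and the ranges overlapped. Pde1b had 313 and 160.3 CPM in the older morphine and 204 and 183 in the older mock pools, against 321 and 271 in the younger morphine and 319.6 and 426 in the younger mock pools. Older morphine pool 3 overlapped with the younger pools. Its log2 fold change was -0.59 ± 0.22 (unadjusted p of 0.0241, adjusted p = 0.456). None of the 10 genes passed, beside 0% of all 15304 genes, of which 1632 had an unadjusted p under 0.05 in edgeR and 34 were called by DESeq2. Pde1c was highest in both pools numbered 4, of mice of 78 days, at 107 CPM in the morphine pool and 102 in the mock pool. The other 6 pools had 38.9 to 78.8 CPM, and those numbered 3, of mice of 78 to 82 days, were among them with 53.5 in the morphine pool and 45.8 in the mock pool.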

How the data were processed

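The authors deposited raw UMI counts per gene and barcode for the accumbens pools, made with DigitalExpression per the file headers, and raw read counts per gene for the sorted cells. The submitters' processing notes name Trimmomatic 0.36, STAR 2.4.2a, HTSeq, DESeq2 and build mm10. The deposited table of the authors' comparison gives log2 fold changes and p-values. Whether reads were counted by strand is not given in the sources used here; Pde2a overlaps another gene on its strand and Pde8b 1 on the other strand, so their counts may be shared.

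The 10 genes, the lists and the tests were chosen with earlier results of these data known. Barcodes had to show 300 or more genes, with no more than 20% of UMIs from mitochondria, which left 33216. Scrublet called 679 doublets, which were removed; it called 0% to 0.17% in 5 pools, where it did not work and doublets remain. Symbols of pools 1 follow another annotation: 1647 were renamed and 6107 found only there were left out (0.764% of UMIs). Counts were clustered in scanpy 1.11.5 (2000 variable genes without the 10 members, 30 components, 15 neighbours, Leiden resolution 1). UMIs were summed per pool and class, and a class was tested where 3 or more pools per group held 10 or more of its cells, 15 in all. Tests were edgeR 4.0.16 quasi-likelihood tests in R 4.3.3 with TMM scaling, filterByExpr and Benjamini-Hochberg adjustment over all genes tested, with an adjusted p under 0.05 called; DESeq2 1.42.0 was an alternative. The test was checked on simulated counts. Rows naming no gene held 69.5% to 74.3% of reads in the sorted libraries and were left out. Levels are CPM, relative to the counts of the pool and class or to the reads in genes. RPKM values were computed from them with exon lengths of GENCODE. Genes of the lists were named where called, up to 3 per list and direction by smallest p, with the 3 genes most like each member over classes among those with at least 10 CPM in 1 class, and Sgk1 and Fkbp5. Some genes that this rule names are not reported here. Other settings tried were DESeq2 size factors, no filter, pools left out, age, replicate number, doublets kept, stricter cell filters and classes from marker scores.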

Additional observations from a re-analysis of the deposited data

Results flagged for a closer look

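Of 80 groups of 4 pools, the 10 genes in all cells, D1 neurons, D2 neurons and oligodendrocytes in each treatment, 5 held a pool that stood far from the other 3, and chance flags about 1 in 20 such groups. Pde1a in D1 neurons was 368 CPM in mock pool 3, and 187 to 200.1 in the other mock pools. Pde7b in D1 neurons was 204 in morphine pool 4, and 125 to 134 in the other morphine pools. Pde8b in D1 neurons was 104 in mock pool 2, and 84.1 to 86.7 in the other mock pools. Pde8b in oligodendrocytes was 30.1 CPM in morphine pool 2, and 8.47 to 11.8 in the other morphine pools. Pde4a in oligodendrocytes was 12.1 in mock pool 4, and 14.1 to 14.5 in the other mock pools. The rule reads a gap relative to the range of the 4 pools, and Pde4a rested on few UMIs there. Whether its gap exceeds counting error was not tested. No gene moved in opposite directions, without overlap, in the younger and older pools of these 4 sets of cells.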

How the results depend on the processing

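In the sorted oligodendrocytes 2 of the 10 genes, Pde4a and Pde4b, were called under each of the 11 other settings, with log2 fold changes of -1.06 to -0.93 and -0.71 to -0.64. No member was called in the accumbens under any setting run, for all cells, the classes, the class by treatment term or age, and leaving out each pool gave 0 to 0. Pde2a in the sorted cells lay so close to 0 that its sign changed: 0.0021 with DESeq2 size factors, 0.0085 with DESeq2, 0.0089 without the filter, 0.016 with the column number as a replicate block, and -0.12 to 0.22 with each library left out. Over all genes of the oligodendrocyte class DESeq2 called 32 where edgeR called 7. With the younger pools alone, Pde10a in D1 neurons was -0.064 and Pde1a in D2 neurons 0.052. Where classes came from marker scores per cell, 6 of the 10 genes kept their highest class, and Pde4b in newly formed oligodendrocytes averaged 144 CPM in place of 228; the cause was not tested. Pools of like number deviated with correlations of 0.44, -0.073, -0.050 and 0.69. Of the 8 pools, 4 correlated best with the pool of their own number, and pools of like number were of like age. The main tests did not treat the pools as pairs, and these values do not settle whether they should be. With the replicate number as a block, 0 members were called, and Pde4b in oligodendrocytes, lower after morphine at 4 of 4 numbers, had -0.47 (adjusted p = 0.071). Its adjusted p ranged from 0.071 to 1.00 over 19 settings. In the sorted cells, where columns of like number correlated at 0.017, -0.13 and -0.030 and 1 of 6 libraries correlated best with its own number, the block left 2 members called, Pde4a and Pde4b. Doublets kept and the stricter cell filter for all cells together were chosen after seeing the data. Pde4a in oligodendrocytes rests on 96 UMIs, and a change of the size seen in sorted cells may not be detectable at this depth.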
